A study of Mus musculus with 21 samples.

Results

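The transcripts of 10 enzymes that carry glucose 6-phosphate to lactate in mouse skeletal muscle were followed across rest, acute exercise and endurance training. The genes were taken by symbol as the muscle form of each step (Gpi1, Pfkm, Aldoa, Tpi1, Gapdh, Pgk1, Pgam2, Eno3, Pkm and Ldha), and all 10 were found among the 53738 gene symbols of the table and among the 11819 symbols whose mean reached 1 TPM, a transcript level corrected for length and for the library's total. RNA was sequenced in bulk from whole quadriceps of male wild-type C57/Bl6 mice. The 7 groups had 3 libraries each. Sedentary mice neither trained nor exercised. Per the study, mice were accustomed to the treadmill over 3 days before performance tests. Untrained mice ran on a treadmill to exhaustion and were sacrificed at once (0 h) or after 6 h or 72 h. Trained mice were given running wheels at the age of 12 weeks, ran voluntarily for 12 weeks, and then performed the same test to exhaustion with the same 3 time points. Treadmill speed rose stepwise in this test, and the study reports better performance of trained mice in such tests. Because trained mice without the bout were not analysed here, a trained group compared with sedentary muscle carries both the training and the bout. Whole muscle also holds nuclei of vessels, connective tissue and immune cells, and fewer cells of a type cannot be told apart from less RNA per cell.

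Glycolysis turns glucose into pyruvate in the cytosol and yields ATP without oxygen, and lactate dehydrogenase then converts pyruvate to lactate and restores NAD+. Fast-twitch fibres, which make up most of the mouse quadriceps, hold these enzymes in very large amounts and rely on them during hard effort. Flux through the pathway is set mostly by phosphofructokinase, allosteric effectors and substrate supply within seconds, whereas transcript levels change over hours. Several steps have a muscle form and a form used by other tissues, such as Pgam2 and Pgam1 or Ldha and Ldhb, and endurance-type muscle carries relatively more of the LDHB subunit.

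Untrained 0 h replicate 1 and trained 0 h replicate 1 held identical values (25037 values above 0), so the table held 20 distinct libraries, and it was kept in both groups at 0 h, with the counts, medians and passing enzymes also given without it. TPM values carry no read numbers, so the depth was unknown. Precision rested on the spread among libraries within groups, as a single estimate per gene pooled over all 7 groups. The shared library entered that estimate in both 0 h groups. Nothing in the labels says how far replicates were separate beyond their number, so p values measure the spread between these samples. Transcripts of the mitochondrial genome, counted only as symbols that begin with mt-, took 37.7% to 48.0% of all TPM. Their mean share was 44.5% ± 2.39 in sedentary muscle, 39.2% ± 1.42 and 38.9% ± 1.05 at 0 h in untrained and trained muscle, and 47.4% ± 0.689 in trained muscle at 72 h (SD, n = 3). As all TPM of a library share a fixed total, the fits of the 10 enzymes and of the linked glycolysis genes were also computed on rescaled TPM. Each library was rescaled to its TPM without mitochondrial-genome genes and without the 10 highest remaining genes, of which Gapdh was one. The fibre and cell type genes and the counts of genes without overlap between groups are given on deposited TPM only. The labelled tissue matched its markers, with Ckm (muscle creatine kinase) at a mean of 16886 TPM and the fast myosin Myh4 at 5629 TPM, against 35.9 TPM for the slow myosin Myh7.

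The sequences just upstream of 4 transcription starts are shown because they belong to the genes on which the results turn: Aldoa, which rose at 0 h, Ldha and Pgam2, which stood lowest in trained muscle, and Pgam1, the other phosphoglycerate mutase, which rose at 6 h. They are the last 160 bases of 250-base windows before RefSeq starts in build GRCm38.p6, written 5′ to 3′ on the strand of the gene. The windows lie at chr7:126799255-126799504 (Aldoa, the second listed start, minus strand), chr7:46845554-46845803 (Ldha, the first listed start, plus strand), chr11:5803797-5804046 (Pgam2, minus strand) and chr19:41911621-41911870 (Pgam1, plus strand). Capitals mark ACGTG or GCGTG on either strand, the cores of hypoxia response elements to which HIF-1 binds, and in Pgam2 a match to the MEF2 motif of muscle genes.
Aldoa: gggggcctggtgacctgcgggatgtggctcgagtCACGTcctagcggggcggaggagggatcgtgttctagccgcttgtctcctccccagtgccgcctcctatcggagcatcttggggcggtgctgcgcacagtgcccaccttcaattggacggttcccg
Ldha: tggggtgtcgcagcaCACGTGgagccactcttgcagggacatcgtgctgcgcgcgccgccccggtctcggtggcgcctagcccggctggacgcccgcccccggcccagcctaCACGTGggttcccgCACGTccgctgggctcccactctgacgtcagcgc
Pgam2: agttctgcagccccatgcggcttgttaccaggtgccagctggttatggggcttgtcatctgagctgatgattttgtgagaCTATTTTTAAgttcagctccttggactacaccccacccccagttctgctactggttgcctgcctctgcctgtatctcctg
Pgam1: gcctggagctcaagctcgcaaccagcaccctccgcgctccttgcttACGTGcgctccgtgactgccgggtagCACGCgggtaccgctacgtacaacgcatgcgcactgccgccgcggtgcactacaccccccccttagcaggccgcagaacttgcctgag

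Over the 17 windows of the 10 genes, ACGTG was found upstream of 5 genes (Pfkm, Aldoa, Pgk1, Pkm and Ldha), and 16.65% of all 32536 promoter windows hold it. GCGTG was found upstream of 4 (Pfkm, Gapdh, Eno3 and Ldha), against 28.35% of all windows. The first Ldha window held 5 matches to ACGTG, 4 of them from a pair of palindromic CACGTG sites, each of which reads as ACGTG on both strands. The MEF2 motif matched only at Pgam2, 80 bases before the start (2.889% of all windows), and the E-boxes CAGCTG and CACCTG each matched upstream of 3 genes (13.05% and 17.29% of all windows). Genes with several listed starts had several chances of a match, and a match describes letters only. Of the Aldoa and Ldha windows not shown, the first of Aldoa held neither ACGTG nor GCGTG and the third held ACGTG. The second Ldha window held GCGTG and no ACGTG. Which start quadriceps uses was not tested.

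Levels differed widely between the enzymes. Over all libraries Gapdh (glyceraldehyde-3-phosphate dehydrogenase, chr6:125135289-125143518, minus strand, GRCm39) averaged 10176 TPM and Aldoa (aldolase A, chr7:126393822-126399923, minus strand) 8171 TPM, ranks 9 and 13 among all genes outside the mitochondrial genome. Eno3 (the muscle enolase, chr11:70546593-70553340) followed with 3499 TPM, Pkm (pyruvate kinase, chr9:59563364-59586663) with 1647, Ldha (lactate dehydrogenase A, chr7:46490899-46505061) with 1516, Pgam2 (the muscle phosphoglycerate mutase, chr11:5751636-5753760, minus strand) with 1283 and Tpi1 (triosephosphate isomerase, chr6:124787549-124791273, minus strand) with 1021. Pfkm (muscle phosphofructokinase, the committed step, chr15:97990451-98031417) averaged 807 TPM, and Gpi1 (glucose-6-phosphate isomerase, chr7:33900755-33929780, minus strand) and Pgk1 (phosphoglycerate kinase, chrX:105230706-105247305) 331 and 322 TPM.

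This order held in nearly every library. Each gene exceeded the next in all 20 distinct libraries, except that Pkm exceeded Ldha in 18, Pgam2 exceeded Tpi1 in 19 and Gpi1 exceeded Pgk1 in 14. Gpi1 and Pgk1 thus did not differ beyond the spread between libraries, with a ratio from 0.832 to 1.18. No enzyme varied much: the highest library was 1.26 times the lowest for Pfkm and 1.70 times for Pgam2, with the other 8 in between. Symbols named as pseudogenes of these enzymes summed to at most 0.280% of the parent gene (Tpi1). The annotation places other genes across 8 of the 10. Of these 18 overlapping genes 8 had a value in the table, none of them at Ldha, and they reached at most 4.58% of the enzyme (Eno3). Pkm is one gene-level value here, so its M1 and M2 isoforms were not separated.

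**Figure D1:**
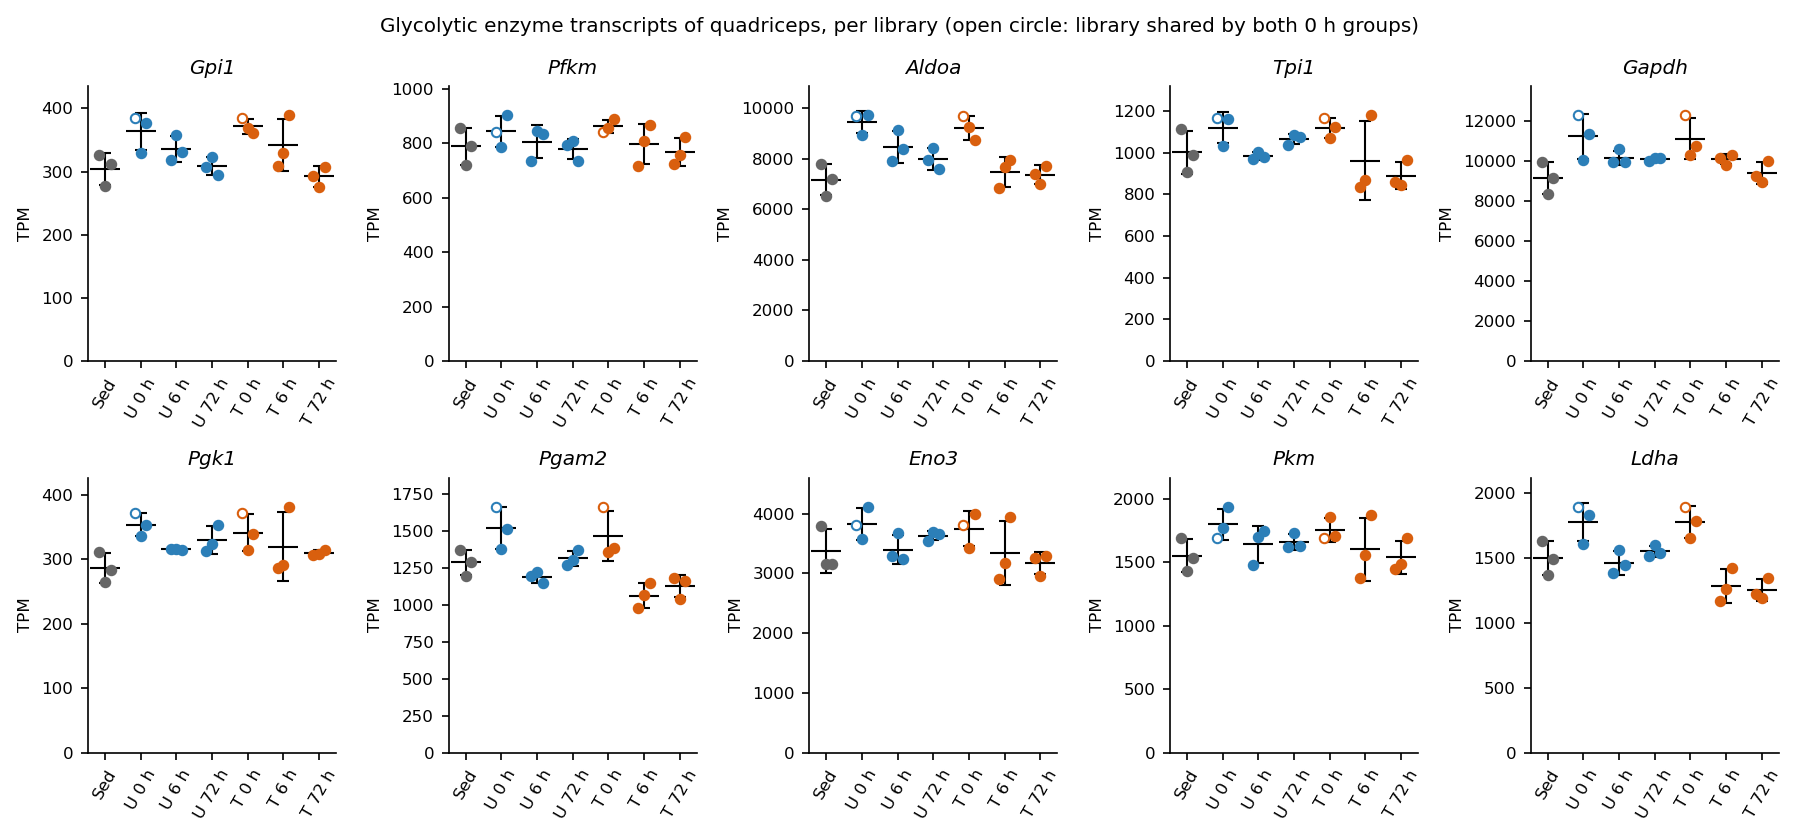
TPM of the 10 enzymes in each library (y axis, linear from 0) by group on the x axis (Sed, sedentary; U, untrained; T, trained; time after exercise in h), with the mean (line) and SD (bars) of 3 libraries; open circles mark the library that both 0 h groups share. Aldoa at 0 h lay between 8744 and 9719 TPM in both groups, above all sedentary libraries, and Pgam2 reached its lowest value of 978 TPM in trained muscle at 6 h.

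Directly after exercise, the question was whether a single exhaustive bout changes the transcripts of the pathway it burdens. On deposited TPM all 10 enzymes were higher on average than in sedentary muscle, in untrained and in trained mice, and few of these differences passed the test. Most genes moved the same way: of the 11819 tested, 8344 were higher in untrained and 9022 in trained muscle. On rescaled TPM 8 of 10 enzymes were higher in untrained and 5 of 10 in trained muscle. In untrained muscle 2 of 10 passed (adjusted p below 0.05; limma with Benjamini-Hochberg adjustment over all 11819 genes), beside 7.46% of all genes tested. In trained muscle 3 of 10 passed, beside 9.37% of all genes. None reached 1.5-fold.

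Aldoa, which splits fructose 1,6-bisphosphate, rose in both groups. Its TPM were 7779, 6543 and 7217 in sedentary muscle, 9687 (the shared library), 8940 and 9719 in untrained muscle at 0 h, and 9687 (shared), 9249 and 8744 in trained muscle at 0 h. The exercised libraries lay above every sedentary library in both groups. The rise was 1.32-fold in untrained muscle (log2 fold change 0.40 ± 0.07 SE, adjusted p = 0.00282) and 1.29-fold in trained muscle (0.36 ± 0.07, adjusted p = 0.0055). Without the shared library Aldoa was the single enzyme to pass in each group, with 0.38 (adjusted p = 0.019) and 0.33 (adjusted p = 0.0372), beside 4.25% and 5.53% of all genes.

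Gapdh, the NADH-yielding step and a frequent reference transcript, had 9926, 8366 and 9169 TPM in sedentary muscle. It had 12276 (shared), 10046 and 11358 TPM in untrained and 12276 (shared), 10313 and 10749 TPM in trained muscle at 0 h, again without overlap with sedentary libraries. Its rise of 1.23-fold in untrained (0.29 ± 0.08, adjusted p = 0.0282) and 1.21-fold in trained muscle (0.28 ± 0.08, adjusted p = 0.0306) leaned on the library of 12276 TPM. Without it the adjusted p was 0.0858 and 0.0959, and the call was also lost without sedentary replicate 2 (0.149 and 0.165) and, in untrained muscle, without untrained 0 h replicate 3 (0.0788).

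Gpi1, which feeds glucose 6-phosphate into the pathway, had 325, 277 and 312 TPM in sedentary muscle and 385 (shared), 369 and 361 TPM in trained muscle at 0 h, with all 3 above sedentary. It passed narrowly there (0.29 ± 0.09, adjusted p = 0.049). Leaving out any one of the 6 libraries ended that call, with adjusted p from 0.0572 to 0.211. In untrained muscle, with 385 (shared), 329 and 377 TPM, the difference was 0.25 (adjusted p = 0.0887).

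The other enzymes moved by less than the test could separate from the spread. Differences at 0 h ran from 0.10 (Pfkm) to 0.30 (Pgk1) in untrained and from 0.13 (Pfkm) to 0.25 (Pgk1 and Ldha) in trained muscle. The libraries of 6 enzymes lay above all sedentary libraries in each group, beside 22.9% of all genes in untrained and 26.3% in trained muscle. The median difference over the 10 enzymes was 0.24 in untrained muscle, where the median over all tested genes was 0.10, and 0.22 against 0.13 in trained muscle. Without the shared library the medians over the enzymes were 0.21 and 0.20. The mitochondrial-genome share was lowest in these same groups.

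The scale mattered at 0 h. On rescaled TPM the median over all tested genes fell from 0.10 to -0.05 in untrained and from 0.13 to -0.04 in trained muscle, and the median over the 10 enzymes to 0.07 and 0.02. The sign turned for Pfkm (-0.07) and Tpi1 (-0.01) in untrained muscle and for Pfkm (-0.06), Tpi1, Pgam2, Eno3 and Pkm in trained muscle, none of which passed on either scale. Aldoa then passed in untrained muscle only (0.23, adjusted p = 0.042), as 1 of 10 beside 5.5% of all genes, with adjusted p from 0.0027 to 0.0799 over the 9 alternative settings that kept all libraries. In trained muscle 0 of 10 passed on that scale, beside 5.08% of all genes, and Aldoa differed by 0.17 (adjusted p = 0.144, range over the settings 0.00527 to 0.144). With rescaling and the shared library left out together, Aldoa missed the threshold in both groups (adjusted p = 0.0772 and 0.281). The part of the mitochondrial share in these values was not tested further.

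**Figure D2:**
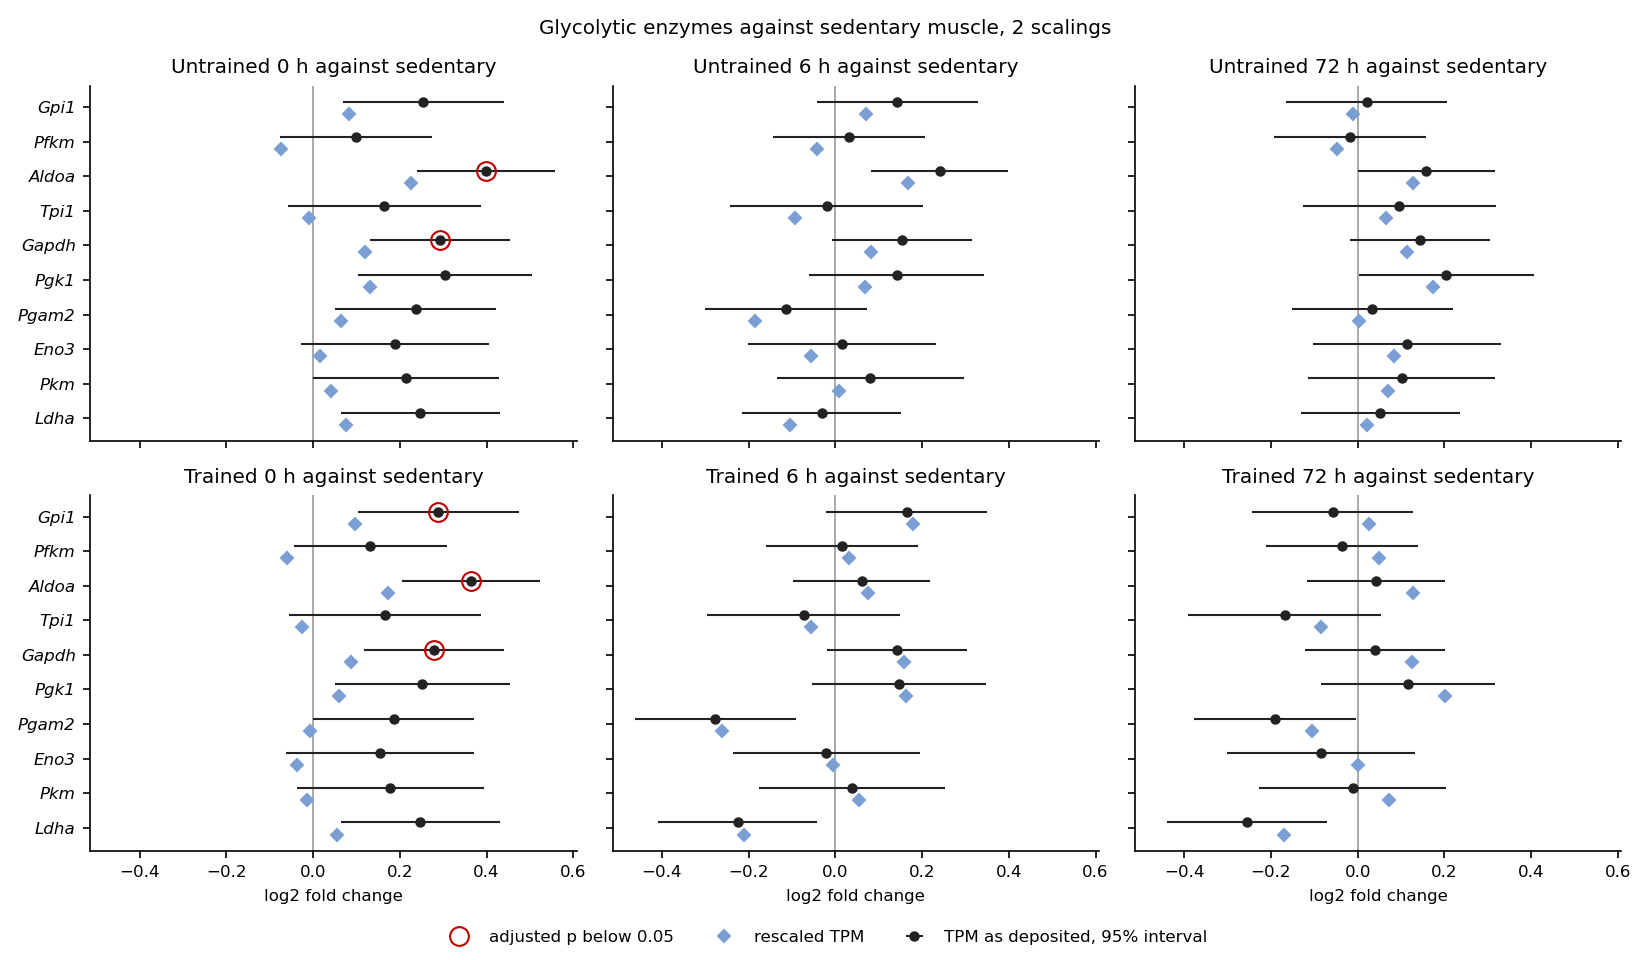
Log2 fold change of each enzyme (y axis) against sedentary muscle in the 6 exercised groups; black points and bars are TPM as deposited with 95% intervals, red rings mark an adjusted p below 0.05, and blue diamonds are the same differences on rescaled TPM. All 10 black points lie right of 0 at 0 h in both groups, rescaling moves all of them down and carries 2 of 10 in untrained and 5 of 10 in trained muscle below 0, and Pgam2 and Ldha lie left of 0 in trained muscle at 6 h and 72 h on both scales.

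At 6 h the enzymes lay near sedentary levels as a group, with median differences of 0.06 in untrained and 0.03 in trained muscle. On rescaled TPM these medians were -0.02 and 0.04. Differences of single enzymes ran from -0.11 to 0.24 in untrained and from -0.28 to 0.16 in trained muscle. By the deposited TPM 0 of 10 passed in untrained and 0 of 10 in trained muscle, beside 9.47% and 10.4% of all genes. At an unadjusted p below 0.05 there were 1 (Aldoa) and 2 (Pgam2 and Ldha), beside 21.8% and 24.1% of all genes at that threshold. On rescaled TPM 2 of 10 passed in trained muscle, both lower, beside 13.1% of all genes.

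Pgam2, the mutase of the late pathway, had 1373, 1198 and 1295 TPM in sedentary muscle and 978, 1067 and 1148 in trained muscle at 6 h. All 3 trained libraries lay below all 3 sedentary ones. The fold was 0.825 (log2 fold change -0.28 ± 0.09), just outside the threshold on deposited TPM (adjusted p = 0.0555) and past it on rescaled TPM (-0.26, adjusted p = 0.0175). Over the 9 settings with all libraries the adjusted p ran from 0.0124 to 0.18, and 3 of the 9 passed. Leaving out single libraries of these groups gave the call in 1 of 6 cases, without trained 6 h replicate 3 (0.0493), with adjusted p up to 0.211. Pgam2 also passed without the shared 0 h library, which is in neither group compared here (0.0203), and with rescaling and without that library (0.0138). Untrained muscle at 6 h had 1197, 1222 and 1149 TPM of Pgam2, a difference of -0.11 (adjusted p = 0.517).

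Ldha, the lactate-forming subunit, had 1634, 1371 and 1494 TPM in sedentary and 1167, 1260 and 1425 TPM in trained muscle at 6 h. The highest trained library overlapped the sedentary range. The difference was -0.23 ± 0.09 on deposited TPM (adjusted p = 0.116) and -0.21 on rescaled TPM (adjusted p = 0.0493), with adjusted p from 0.00206 to 0.344 over the settings. In untrained muscle Ldha had 1382, 1566 and 1448 TPM and differed by -0.03 (adjusted p = 0.899).

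Aldoa stayed highest in untrained muscle at 6 h, with 7907, 9146 and 8377 TPM, all above the sedentary libraries. The difference of 0.24 ± 0.07 missed the threshold (adjusted p = 0.0542). Without single libraries it passed in 2 of 6 cases, without sedentary replicate 1 (0.0336) or untrained 6 h replicate 1 (0.0298), with adjusted p up to 0.233. Of the 9 settings with all libraries 1 passed, with adjusted p up to 0.287. In trained muscle Aldoa had 6832, 7672 and 7954 TPM, and the difference was 0.06 (adjusted p = 0.669). The libraries of 3 enzymes (Aldoa, Gapdh and Pgk1) lay above the sedentary range in untrained muscle, beside 11.7% of all genes, and those of 1 enzyme (Pgam2) below it in trained muscle, beside 15% of all genes.

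At 72 h, 0 of 10 enzymes passed in untrained muscle, beside 0.00846% of all genes (1 gene, the macrophage marker Cd68), and 0 of 10 in trained muscle, beside 0.254%. At an unadjusted p below 0.05 there were 1 (Pgk1, 0.20, higher) and 2 (Ldha and Pgam2, lower), beside 5.77% and 11.7% of all genes. In trained muscle Ldha had 1220, 1195 and 1350 TPM, all below the sedentary libraries, a difference of -0.26 ± 0.09 (adjusted p = 0.249). Pgam2 had 1181, 1040 and 1166 TPM there, also all below, a difference of -0.19 ± 0.09 (adjusted p = 0.417). These 2 of 10 stood beside 13.8% of all genes below the sedentary range. In untrained muscle 2 enzymes lay wholly above it (Gapdh and Pgk1), beside 9.04% of all genes, and differences ran from -0.02 (Pfkm) to 0.20 (Pgk1).

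Trained and untrained muscle were then compared at the same time after the same test to exhaustion. As trained mice performed better in such tests, an effect of training cannot be told apart from a difference in the work done. No enzyme passed at any of the 3 times (0 h, then 6 h, then 72 h), beside 0%, 4.56% and 0.415% of all genes, and the counts at an unadjusted p below 0.05 were 0, 2 and 3, beside 1.21%, 18.3% and 15%. At 0 h the groups share a library, differences ran from -0.05 to 0.03, and the 95% intervals of the 10 enzymes spanned -0.25 to 0.22. Without that library the differences ran from -0.08 to 0.05. At 6 h Aldoa (-0.18, adjusted p = 0.205) and Ldha (-0.19, adjusted p = 0.242) were the lowest relative to untrained muscle, and Pgam2 was lower in all 3 trained libraries than in any untrained one (-0.16, adjusted p = 0.344), 1 of 10 beside 11.5% of all genes.

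By 72 h all 10 enzymes stood lower in the trained group than in the untrained one, from -0.02 (Pfkm) to -0.31 (Ldha, ± 0.09, adjusted p = 0.129). Of the 11819 genes tested, 8238 were lower in that comparison. Ldha had 1514, 1599 and 1541 TPM in untrained against 1220, 1195 and 1350 TPM in trained muscle. Tpi1 (-0.26, adjusted p = 0.252), Pgam2 (-0.22, adjusted p = 0.245), Eno3 (-0.20, adjusted p = 0.379) and Gapdh (-0.10, adjusted p = 0.567) were also lower in all trained libraries. These 5 of 10 stood beside 24.6% of all genes. The median over all tested genes was -0.08 in the same comparison, and on rescaled TPM the median over the enzymes was 0.00, with 5 of 10 higher. The mitochondrial-genome share was 47.4% in trained and 43.3% in untrained muscle at 72 h.

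Ratios between enzymes within one library do not depend on the library's total. Ldha relative to Pkm, the step before it, was 0.961, 0.969 and 0.974 in the sedentary libraries. It was 0.762, 0.809 and 0.848 in trained muscle at 6 h and 0.801, 0.806 and 0.846 at 72 h, below every library of the sedentary and 0 h groups. In untrained muscle the ratio was 0.831, 0.921 and 0.938 at 6 h and 0.924, 0.935 and 0.946 at 72 h. Pgam2 relative to Pkm was 0.832 ± 0.016 in sedentary, 0.670 ± 0.050 in trained muscle at 6 h and 0.730 ± 0.077 in untrained muscle at 6 h (SD, n = 3). With 3 libraries a group an exact test cannot go below p = 0.10, so these ratios are given without one.

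The same was fitted across all genes with each library scaled to the geometric mean of the 10 enzymes, a setting chosen after the values were seen. Relative to the enzymes as a group, Ldha (-0.22 ± 0.04, adjusted p = 0.00206) and Pgam2 (-0.27 ± 0.06, adjusted p = 0.0124) fell and Gpi1 rose (0.17 ± 0.05, adjusted p = 0.0331) in trained muscle at 6 h, 3 of 10 beside 7.34% of all genes. Aldoa rose relative to the group in untrained muscle at 6 h (0.18 ± 0.04, adjusted p = 0.0252), 1 of 10 beside 6.85% of all genes. This scaling removes the variation that the 10 enzymes share, so their standard errors shrink (Ldha from 0.09 on deposited TPM to 0.04). It also makes their changes balance each other, so a fall in some enzymes raises the others. The counts of enzymes are therefore not like for like with the shares of all genes. These values describe unequal change among the 10 and not which of them moved.

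**Figure D3:**
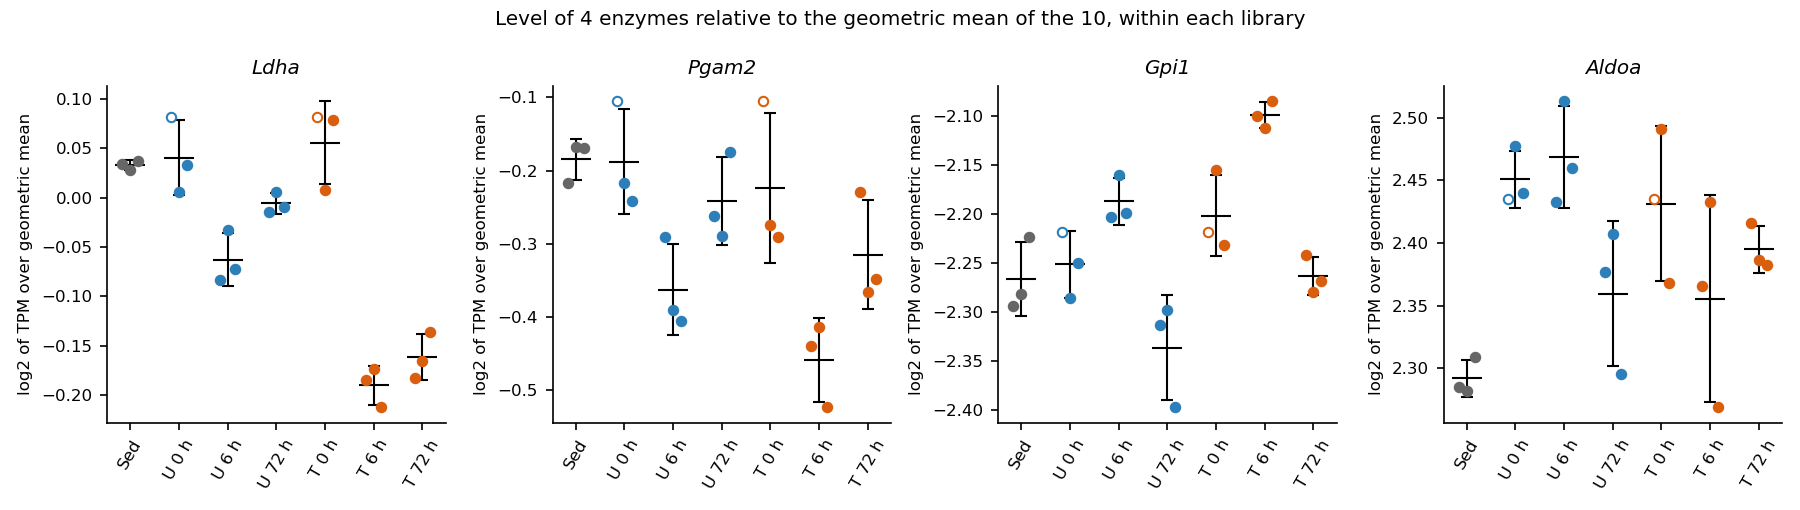
Log2 of the TPM of Ldha, Pgam2, Gpi1 and Aldoa over the geometric mean of the 10 enzymes in the same library (y axis) by group (Sed, sedentary; U, untrained; T, trained), with mean and SD of 3 libraries; open circles mark the shared library. Ldha lay at 0.03 in sedentary muscle and at -0.19 and -0.16 in trained muscle at 6 h and 72 h, below every library of the other 5 groups.

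The muscle forms dominated their isozyme families. In sedentary muscle Aldoa, Gapdh, Pgk1 and Pkm made up practically all TPM of their families, Pfkm 99.6% ± 0.089, Pgam2 99.6% ± 0.069 and Eno3 98.8% ± 0.107. Ldha was the exception with 92.1% ± 2.28 (SD, n = 3), the remainder being nearly all Ldhb. Pgam1, the mutase of most other tissues, was the isozyme that rose. It had 4.34, 5.35 and 5.45 TPM in sedentary muscle, 7.39, 9.23 and 9.58 in untrained and 9.06, 10.1 and 11.4 TPM in trained muscle at 6 h, without overlap. The rise was 0.73 ± 0.12 (adjusted p = 0.00119) and 0.95 ± 0.12 (adjusted p = 0.000226), and it passed without any one library; in untrained muscle it did not pass when only the groups compared were fitted (0.0796). The ratio of Pgam2 to Pgam1 went from 259 ± 49.8 in sedentary muscle to 138 ± 21.6 and 106 ± 17.4.

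Ldhb, the subunit that favours lactate use, had 93.6, 134 and 151 TPM in sedentary muscle. It had 64.3, 69.3 and 90.5 TPM in untrained muscle at 6 h, where it fell (-0.74 ± 0.18, adjusted p = 0.0141), and 114, 125 and 157 TPM in trained muscle at 6 h (0.08). The trained libraries lay above all untrained ones, a difference of 0.82 ± 0.18 (adjusted p = 0.0136). Both calls were sensitive to single libraries. The fall in untrained muscle missed the threshold without sedentary replicate 2 or 3 or untrained 6 h replicate 2 or 3 (adjusted p up to 0.0763), and the difference between trained and untrained muscle without untrained 6 h replicate 2 or 3 or trained 6 h replicate 1 (up to 0.0703). The share of Ldha among lactate dehydrogenase transcripts was 95.1% ± 1.10 in untrained and 90.6% ± 2.27 in trained muscle at 6 h.

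Slow fibre genes were compared beside Ldhb. Of 8 listed, 7 were tested, and all 7 were lower than sedentary in untrained muscle at 6 h, where 2 passed (Myl2 and Myl3, myosin light chains of slow fibres) and the median was -1.23. At that time all 7 stood higher in the trained group than in the untrained one (median 1.26, 1 passing), against a median of -0.04 over all tested genes. The summed TPM of the 8 genes ran from 535 to 1006 in sedentary libraries, from 246 to 371 in untrained and from 380 to 1130 in trained libraries at 6 h. All 7 were also lower than sedentary in untrained muscle at 0 h (median -1.09, 1 passing), where Ldhb differed by -0.39 (adjusted p = 0.193), and in trained muscle at 72 h (median -0.89, 0 passing), where Ldhb differed by 0.03. The same held in trained muscle at 0 h (median -0.55, 0 passing) and in untrained muscle at 72 h (median -0.64, 0 passing). Only in trained muscle at 6 h were some higher than sedentary (4 of 7, median 0.13). Of 11 fast fibre genes, 10 were higher at 0 h in each group (medians 0.21 and 0.30, with 2 and 3 passing), where the enzymes were higher too. At 6 h 0 passed in untrained muscle, and in trained muscle Myh1 rose and Tnnc2 fell. In trained muscle at 72 h, where Ldha and Pgam2 were lower, 10 of 11 were lower (median -0.19, 0 passing). The part of fibre composition in the enzyme values was not tested.

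Other cell types gave smaller sums than muscle. Macrophage genes summed to between 35.7 and 80.4 TPM in every library. Of 7 tested, 2 rose in untrained muscle at 6 h (Cd68 and Csf1r), 1 at 72 h (Cd68), and 0 passed in trained muscle against sedentary. All 7 were lower in the trained than the untrained group at 6 h (median -0.56, 2 passing) and at 72 h (median -0.28, 1 passing). Of 6 endothelial genes Kdr fell at 0 h in both groups, Kdr and Cldn5 fell at 6 h in untrained muscle, and 0 passed in trained muscle at 6 h. Of 5 fibro-adipogenic genes, 2 fell in trained muscle at 6 h (Col1a1 and Col3a1). None of the 4 adipocyte and 5 red blood cell genes passed in any comparison. Of the 7 muscle identity genes, Myog rose at 0 h in both groups and Acta1 in the trained one, and Des and Myod1 rose at 6 h in untrained muscle. Their part in the enzyme values was not tested.

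Around the core enzymes, some genes that admit, regulate and export along the pathway changed at 6 h, and most did not. Of 56 further genes of glycolysis, its branches and its regulators, 42 were tested. At 6 h, 8 rose and 4 fell in untrained muscle, and 10 rose and 2 fell in trained muscle, beside 9.47% and 10.4% of all genes. Their median differences were 0.07 and 0.09, and those of the core enzymes 0.06 and 0.03. At 0 h, 2 rose and 1 fell in untrained and 3 rose and 1 fell in trained muscle, shares near the 7.46% and 9.37% of all genes, and at 72 h 0 passed in either, with 3 and 6 at an unadjusted p below 0.05, beside 5.77% and 11.7% of all genes. When only the groups compared were fitted, Hk2, Adpgk, Pfkfb4 and Slc16a1 were among those that still passed in untrained muscle at 6 h, and Hk2, Pgam1, Pfkfb2, Pfkfb4, Bpgm, Slc16a1 and Got1 in trained muscle.

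Glucose phosphorylation held large rises. Hk2, the insulin-responsive hexokinase of muscle, had 46.7, 50.3 and 50.5 TPM in sedentary muscle, 110, 119 and 157 TPM in untrained and 124, 127 and 152 TPM in trained muscle at 6 h. All exercised libraries lay far above the sedentary ones, with log2 fold changes of 1.36 ± 0.23 (adjusted p = 0.00109) and 1.44 ± 0.23 (adjusted p = 0.000886).

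Adpgk, a glucose kinase that uses ADP, rose from between 2.61 and 3.11 TPM to 5.37, 5.42 and 7.26 TPM in untrained muscle (0.97 ± 0.10, adjusted p = 6.68e-06). In trained muscle it had 3.59, 3.64 and 3.70 TPM (0.33 ± 0.10, adjusted p = 0.0381), a call made without sedentary replicate 3 and lost without any other of the 6 libraries (0.0822 to 0.128). It stood lower in trained muscle by -0.64 ± 0.10 (adjusted p = 0.00102), all 3 libraries below the untrained ones. Hk1 did not pass in either (0.18 and 0.22).

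The bifunctional enzymes that set fructose 2,6-bisphosphate, the activator of phosphofructokinase, split by isoform. Pfkfb4 rose from 11.3, 11.7 and 13.8 TPM to 25.9, 28.1 and 32.9 TPM in untrained (1.20 ± 0.11, adjusted p = 2.61e-06) and to 21.6, 23.4 and 24.4 TPM in trained muscle (0.89 ± 0.11, adjusted p = 0.000114). Pfkfb2 rose more in trained muscle. It had 3.29, 3.53 and 3.79 TPM in sedentary, 4.24, 4.58 and 5.18 in untrained and 6.66, 7.02 and 7.74 TPM in trained muscle, without overlap. It rose by 0.92 ± 0.10 in trained muscle (adjusted p = 5.88e-05) and exceeded untrained muscle by 0.57 ± 0.10 (adjusted p = 0.00407). Its smaller rise in untrained muscle (0.35, adjusted p = 0.0418) passed without untrained 6 h replicate 2 and was lost without any other of the 6 libraries (up to 0.170). Pfkfb3, the most abundant form, varied widely (66.1 to 164 TPM in sedentary muscle) and did not pass (-1.25 and -0.75), and Pfkfb1 did not pass either. Bpgm, which diverts 1,3-bisphosphoglycerate, fell in both, from 39.1, 39.3 and 42.9 TPM to 27.2, 32.8 and 33.1 TPM (-0.38 ± 0.08, adjusted p = 0.00821) and to 23.8, 24.7 and 27.9 TPM (-0.66 ± 0.08, adjusted p = 0.000181).

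At the far end of the pathway, the lactate transporter genes also split. Slc16a1 (MCT1) had 4.80, 5.43 and 5.98 TPM in sedentary muscle and rose to 9.58, 9.75 and 11.5 TPM in untrained (0.87 ± 0.09, adjusted p = 1.35e-05) and 9.54, 11.5 and 11.8 TPM in trained muscle at 6 h (0.96 ± 0.09, adjusted p = 2.46e-05). Slc16a3 (MCT4), the exporter of fast fibres, was far more abundant in sedentary muscle (88.2, 93.6 and 99.1 TPM) and did not pass at 6 h (0.13 and -0.02). Among genes that return cytosolic NADH to mitochondria, Got1 (aspartate aminotransferase) rose in trained muscle from 118, 128 and 131 TPM to 165, 176 and 189 TPM (0.49 ± 0.06, adjusted p = 0.000226) and stood above untrained muscle (0.35 ± 0.06, adjusted p = 0.00507). Gpd1l likewise exceeded untrained muscle (0.35 ± 0.07, adjusted p = 0.00847). Of the reverse steps, Pck2 fell at 0 h, from 1.05, 1.25 and 1.31 TPM to 0.454, 0.629 and 0.657 TPM in untrained muscle (-0.66 ± 0.14, adjusted p = 0.00677, and 0.0183 without the shared library), and none passed at 6 h.

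**Figure D4:**
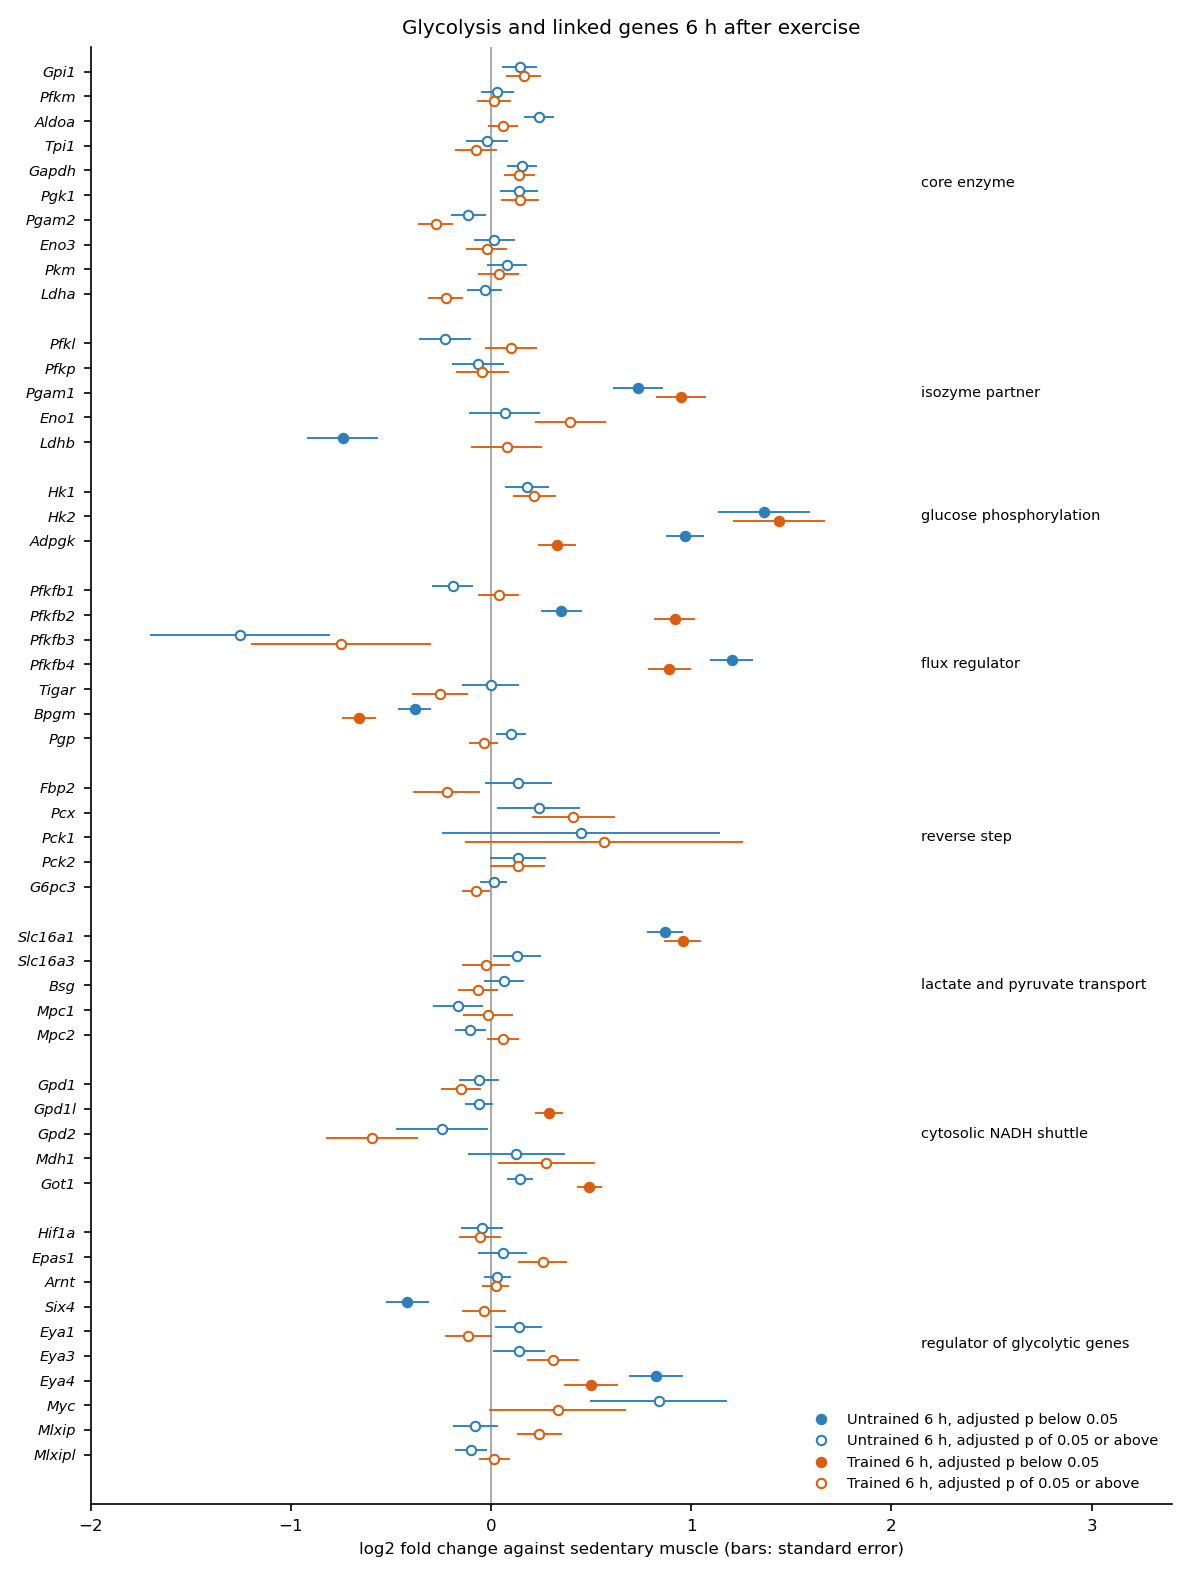
Log2 fold change at 6 h against sedentary muscle (x axis, bars show the standard error) for the 10 core enzymes and the linked genes shown, in untrained (blue) and trained (orange) muscle; filled points passed at an adjusted p below 0.05 and open points did not. All core enzymes lie between -0.28 and 0.24 and are open, while Hk2, Adpgk, Pfkfb4, Pgam1 and Slc16a1 are filled and positive in both groups.

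Among listed regulators of glycolytic genes, Eya4, a transcriptional co-activator, rose at 6 h (0.83 ± 0.13, adjusted p = 0.000884, in untrained and 0.50 ± 0.13, adjusted p = 0.0267, in trained muscle, the latter lost without sedentary replicate 1 or 2 or trained 6 h replicate 1 or 3, up to 0.122). Hif1a, the oxygen-sensitive subunit of HIF-1, was at 2.39 to 3.63 TPM in every library and did not pass in any comparison, nor did Epas1 or Arnt.

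All pairs of the enzymes correlated positively across libraries on deposited TPM, and not all of them on rescaled TPM. No pairs of other genes are set beside them. Over the 20 distinct libraries, which share their TPM total, the 45 pairs among the 10 enzymes had Pearson correlations of log2 TPM from 0.485 to 0.930 (median 0.722), and from -0.146 to 0.848 (median 0.414) on rescaled TPM. The 5 other genes most like the mean of the 10 were Pgm1, phosphoglucomutase, which links glycogen to glycolysis (r = 0.958), Gm47854 (r = 0.955), the fast myosin light chain Myl1 (r = 0.926), Vmn2r60 (r = 0.911) and Cd55 (r = 0.891). On rescaled TPM the correlations of these 5 were, in the same order, 0.875, 0.862, 0.774, 0.718 and 0.735. The 5 most alike on that scale were Pgm1, Gm47854, Gm16537 (r = 0.794), Gpd1 (r = 0.779) and Myl1, so the list depended on the scale.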

How the data were processed

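Bulk RNA-seq of quadriceps was analysed in 21 libraries, 3 in each of 7 groups named by the labels. The authors prepared libraries with a TruSeq version 2 kit, mapped reads to GRCm39 with STAR 2.7.9 and quantified with Salmon 1.5.0, per the study's methods and the submitters' processing notes, which also list DESeq2. The deposited TPM values, one per gene symbol, correct for transcript length and share a fixed total. A rise of one abundant class therefore lowers the rest. The use of strand in counting is not given in the sources used here.

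TPM were transformed to log2(TPM + 0.5), so fold changes of low genes are understated. The genes whose mean reached 1 TPM were fitted with limma 3.58.1 (R 4.3.3), one mean per group, a variance trend and 14 residual degrees of freedom, in 9 comparisons, with Benjamini-Hochberg adjustment over 11819 genes. A gene passed at an adjusted p below 0.05. The procedure was tested on simulated data. Alternatives were pseudocounts of 0.1 and 1, no filter, a mean of at least 5 TPM, rescaled TPM, median-of-ratios scaling, only the groups compared, a replicate block, the shared library left out, and each library left out. Scaling to the 10 enzymes, and rescaling with the shared library left out, were chosen after seeing the data. Named genes are the 10 enzymes in every comparison, their isozymes, and listed pathway genes that passed or gave a list its range. The 5 genes most alike on each scale are also named. Members and lists were chosen with earlier results of these data known. Gene positions are from GENCODE on GRCm39 and promoter windows from RefSeq on GRCm38.p6. Some linked genes enter the counts and are not reported here by name.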

Additional observations from a re-analysis of the deposited data

Results flagged for a closer look

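At 6 h, 5 genes linked to glycolysis differed between trained and untrained muscle when the difference itself was tested. Ldhb (log2 difference 0.82), Pfkfb2 (0.57), Gpd1l (0.35) and Got1 (0.35) were higher in trained muscle, and Adpgk (-0.64) was lower, each in 3 of 3 libraries. None of the 5 passed when only the 2 groups compared were fitted (adjusted p from 0.162 to 0.216), and on rescaled TPM all 5 passed. None of the 10 core enzymes differed in this comparison by the same test.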

How the results depend on the processing

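Counts of passing enzymes at 0 h depended on the setting. In untrained muscle (2 as reported) the count was 1 with no filter, on rescaled TPM, with median-of-ratios scaling or without the shared library, and 0 at 1.5-fold, with only the groups compared, scaled to the 10 enzymes, or rescaled without the shared library. In trained muscle (3 as reported) it was 1 with no filter or without the shared library, and 0 under the other 6 of these settings. Leaving out single libraries gave 1 to 2 in untrained and 1 to 2 in trained muscle at 0 h, and 0 to 1 in both at 6 h. In untrained muscle at 6 h (0 as reported) it was 1 scaled to the 10 enzymes; in trained muscle at 6 h (0 as reported) it was 2 on rescaled TPM, 3 scaled to the 10 enzymes, and 1 with the replicate block, without the shared library, or rescaled without it. The other 5 comparisons kept 0 passing enzymes in every setting. Pgam2 in untrained muscle at 0 h turned to -0.003 when scaled to the 10 enzymes. Differences of enzymes that did not pass also turned sign on rescaled TPM, where the number of enzymes higher went from 10 to 8 (untrained) and 10 to 5 (trained) at 0 h and from 0 to 5 for trained against untrained muscle at 72 h.

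For the linked genes, untrained muscle at 0 h (3 as reported) gave 1 with no filter, under each scaling and without the shared library, and 1 to 5 without single libraries. Trained muscle at 0 h (4 as reported) gave 0 with no filter, with only the groups compared or without the shared library, 2 at a mean of 5 TPM, 1 under each scaling, and 0 to 3 without single libraries. With only the groups compared the counts at 6 h were 5 in untrained and 7 in trained muscle (12 each as reported), and without single libraries 8 to 11 in each. For trained against untrained muscle at 6 h (5 as reported) the count was 3 at a mean of 5 TPM or scaled to the 10 enzymes, 8 on rescaled TPM with or without the shared library, 0 with only the groups compared, and 4 to 6 without single libraries. The causes were not tested.

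Replicate numbers did not pair the samples. Deviations of same-numbered libraries from their group means correlated from -0.115 to 0.134 over 62 pairs, and 4 of 21 libraries correlated best with their own number. With the replicate block, Pgam2 passed in trained muscle at 6 h (adjusted p = 0.0474) and Gpi1 at 0 h in trained muscle did not (0.0604). TPM give no depth, so counting error is unknown.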
